A study of Mus musculus with 4 samples.

Results

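The insulin-like growth factor (IGF) system was followed in handled control mice, in the dentate gyrus, where the granule cells of the hippocampus lie. The genes asked for were the ligands Igf1 and Igf2, the receptors Igf1r and Igf2r, and the binding proteins Igfbp2, Igfbp3, Igfbp4, Igfbp5 and Igfbp6, and the members are all probe sets annotated with 1 of these symbols alone. There were 13 such probe sets for 8 of the 9 genes, out of 10833 probe sets for 8251 genes on the array that carry 1 symbol. Igfbp5 had 1 probe set, which carries a second symbol as well, so its level is not given. All samples came from young male C57BL/6J mice that were handled and otherwise left untreated. Total RNA was taken at 1, 2, 4 or 6 h, timed from the last shock of a separate group of mice that is not analysed here, with 1 sample and 1 array at each hour. The number of mice behind a sample is not given in the sources used here.

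In this system 2 small secreted peptides related to insulin signal through a cell surface tyrosine kinase. Igf1r carries the signal of both ligands into the PI3 kinase and ERK cascades, while Igf2r, which is also the cation-independent mannose 6-phosphate receptor, takes Igf2 up and delivers it to lysosomes. The Igfbp proteins hold the ligands outside the cell and can block or prolong their action. In the adult hippocampus Igf1 is known for supporting new granule neurons, and Igf2, an imprinted gene, is made in the adult rodent brain largely by the leptomeninges and choroid plexus.

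Where 4 values follow each other they are intensities at 1, 2, 4 and 6 h. The number of arrays limits the precision. Because each hour has 1 array, an SD over the 4 samples holds both the hour and the array, which cannot be told apart. Below an intensity of 38.3, which is the 20th percentile over all arrays, values have no usable order. A probe set was tested when its mean log2 intensity was at least 6.91, the 40th percentile of the 10833 probe sets with 1 symbol. That left 6500 probe sets, among them 7 of the 13 members, 1 each for Igf1, Igf2, Igf1r, Igf2r, Igfbp2, Igfbp4 and Igfbp6. The array medians were 185.6, 187, 213 and 184.8. Of 10 dentate granule cell markers, 6 were measured and 5 tested. Their summed intensity was 5140, 6250, 5059 and 5559, highest at 2 h and 1.24-fold apart. That of astrocyte, interneuron, oligodendrocyte and microglia markers varied by at most 1.12-fold.

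No member had a called trend with the hour, and those that differed most between arrays were Igfbp2, Igfbp6 and Igf2, each over 2-fold between its highest and lowest array. Igfbp2 and Igfbp6 were highest at 4 h and Igf2 at 2 h. Of the 7 tested members, 3 spanned over 2-fold, beside 21.6% of all 6500 tested probe sets. Which 3 these are turns on single arrays: without the 4 h sample 1 member, Igf2, spanned over 2-fold, beside 11.5% of all. Leaving out the 1 h or the 2 h sample left Igfbp2 and Igfbp6 over 2-fold, beside 15.7% and 15.5% of all. Leaving out the 6 h sample left Igf2 and Igfbp6, beside 15.9%. The median span was 1.8-fold for the members and 1.53-fold for all tested probe sets.

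**Figure D1:**
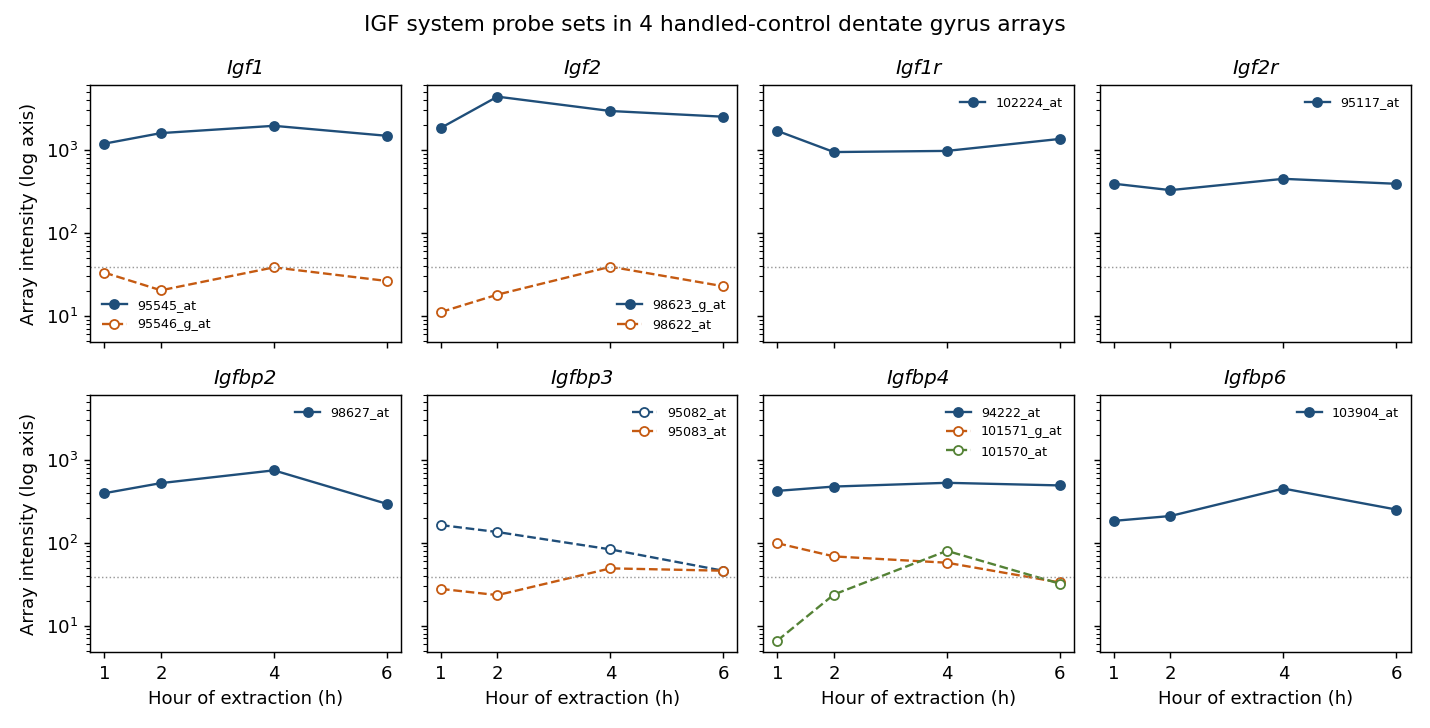
Array intensity (log axis) of each of the 13 member probe sets against the hour of extraction, 1 panel per gene and 1 array per hour. Filled circles with solid lines are the 7 tested probe sets, open circles with dashed lines the 6 with a mean under the filter, and the dotted line is 38.3. Igf2 is highest at 2 h, Igfbp2 and Igfbp6 at 4 h, and 1 probe set each of Igfbp3 and Igfbp4 is lower at each step.

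Because Igfbp2, Igfbp6 and Igf2 varied most, the bases just before their transcription starts are shown. Each is the 250 bases upstream of a start annotated by RefSeq on GRCm38.p6, read in the direction of the gene. For Igfbp2 it is the more upstream of 2 starts (chr1:72824230-72824479, plus strand), for Igfbp6 the single start (chr15:102143936-102144185, plus strand) and for Igf2 the most downstream of 4 starts (chr7:142657497-142657746, minus strand). Capitals mark GC boxes (GGGCGG) and TATA boxes (TATAAA), searched on both strands, with overlapping matches counted.
Igfbp2: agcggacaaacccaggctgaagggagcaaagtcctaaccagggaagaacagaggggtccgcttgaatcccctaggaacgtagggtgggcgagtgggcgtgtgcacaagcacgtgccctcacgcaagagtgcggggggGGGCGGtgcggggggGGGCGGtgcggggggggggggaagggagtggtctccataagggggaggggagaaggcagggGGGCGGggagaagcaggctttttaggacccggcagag
Igfbp6: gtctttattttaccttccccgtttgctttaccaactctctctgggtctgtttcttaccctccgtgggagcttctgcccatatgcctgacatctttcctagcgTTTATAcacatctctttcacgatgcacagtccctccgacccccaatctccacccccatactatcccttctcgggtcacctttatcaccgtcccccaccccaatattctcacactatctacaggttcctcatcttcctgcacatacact
Igf2: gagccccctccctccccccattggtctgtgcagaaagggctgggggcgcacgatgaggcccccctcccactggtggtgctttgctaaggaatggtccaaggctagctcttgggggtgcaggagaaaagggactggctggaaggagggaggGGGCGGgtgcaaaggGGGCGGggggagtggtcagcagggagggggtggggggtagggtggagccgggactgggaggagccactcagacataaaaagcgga

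The Igfbp2 stretch holds 3 GC boxes, the Igfbp6 stretch none, and the Igf2 stretch 2. GC boxes occur in 32.7% of the 32851 annotated starts and TATA boxes in 12.4%. Over all 4 Igf2 starts, 2 hold a GC box, and the array does not tell which start an Igf2 RNA came from. Nor does it tell this for Igfbp2, whose more downstream start has no GC box and 56.4% G and C. The printed stretches of Igfbp2 and Igfbp6, which shared their highest array, differ in base composition as well, at 67.2% and 49.6% G and C. The 1 match for a TATA box among the printed stretches lies 148 bases before the Igfbp6 start, on the opposite strand. Among the other members Igfbp4 has a TATA box 28 bases before its start, and Igf2r has 3 GC boxes and Igf1r 2. Over all 13 annotated starts of the 9 genes, 5 hold a GC box and 2 a TATA box.

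Of the ligands, Igf1 had intensities of 1193, 1599, 1957 and 1484. It was lowest at 1 h and highest at 4 h, a 1.64-fold span, with a mean of 1558 ± 316 (SD, n = 4). Its slope on the hour was 0.06 ± 0.07 log2 per h (SE, n = 4), with a 95% interval from −0.09 to 0.2. A second Igf1 probe set read 33.2, 20.3, 38.4 and 26.3, above 38.3 at 4 h alone, and shows no course.

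Igf2 read 1849, 4402, 2955 and 2521, with a mean of 2932 ± 1081 (SD, n = 4). The 1 h array was the lowest and the 2 h array the highest, 2.38-fold apart, and the 4 and 6 h arrays lay between them. Without the 2 h sample the span was 1.6-fold, and without the 1 h sample 1.75-fold. Relative to the mean of the other hours the 2 h array stood at 0.88 and the 1 h array at −0.79 on the log2 scale. The fitted slope came to 0.01 ± 0.09 log2 per h (SE, n = 4; 95% interval −0.18 to 0.2). A second probe set of Igf2 read 11.1, 18, 39.1 and 22.7, above 38.3 at 4 h alone.

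Markers of the leptomeninges and of fibroblasts varied beside Igf2. All 19 genes of this list were measured and 11 tested, 1 had a value under 38.3 on every array (Aldh1a2), and the summed intensity was 14750.1, 33986, 21445 and 15827. As for Igf2, the sum was lowest at 1 h and highest at 2 h, 2.3-fold apart. Of the 11 tested genes, 7 were highest at 2 h, beside 22.4% of all tested probe sets, and 6 were lowest at 1 h, beside 24.1%. By the brightest probe set of each gene, 3 of 5 tested granule cell and 5 of 10 interneuron genes were also highest at 2 h. So were 3 of 8 endothelial and mural and 1 of 7 microglia genes, but no tested astrocyte, oligodendrocyte or choroid plexus gene. Prostaglandin D synthase (Ptgds), an abundant protein of the leptomeninges that other brain cells make too, read 8454, 25917, 13765 and 8912, and its 2 other probe sets were also highest at 2 h. Leaving Ptgds out, the sum was 6296, 8069, 7679.9 and 6915, still highest at 2 h but 1.28-fold apart. Lumican (Lum), a collagen-binding matrix protein, read 59.5, 233, 145 and 158, and decorin (Dcn), of the same protein family, 599.7, 1257, 701 and 964. All 3 were picked with their values known, and Lum passed the filter only through its 2 h value. Col1a1, Col1a2 and Mgp were instead highest at 4 h. The part of leptomeningeal tissue in the Igf2 values was not tested, and in such bulk samples fewer cells of a type and less RNA per cell cannot be told apart.

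**Figure D2:**
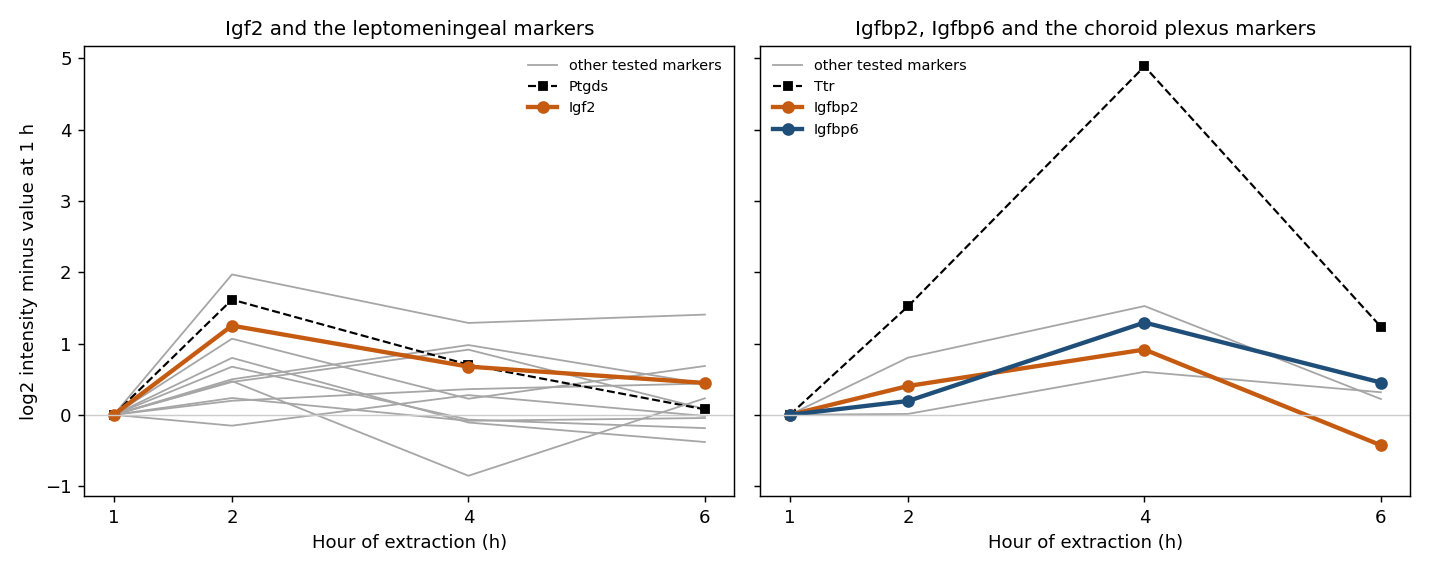
Difference in log2 intensity from the 1 h array (vertical axis) against the hour of extraction, for Igf2 with the 11 tested leptomeningeal and fibroblast markers (left) and for Igfbp2 and Igfbp6 with the 3 tested choroid plexus markers (right). Coloured lines are members, the dashed black line the brightest marker (Ptgds or Ttr) and grey lines the other markers, each point being 1 array. Igf2 peaks at 2 h with 7 of the 11 markers, and Igfbp2 and Igfbp6 peak at 4 h with all 3 choroid plexus markers. These 3 markers and Igfbp6 are lowest at 1 h, but Igfbp2 is lowest at 6 h.

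Of the receptors, Igf1r read 1699, 944, 975 and 1359.8. While both ligands were lowest at 1 h, Igf1r was highest there and lowest at 2 h, 1.8-fold apart, with a mean of 1245 ± 357 (SD, n = 4). The 2 and 4 h values were close, and with each array scaled to its median the 4 h value was the lower, at 883 against 971. Its fitted slope was −0.03 ± 0.08 log2 per h (SE, n = 4; 95% interval −0.2 to 0.14). Among pairs of tested members, the widest root mean square distances between centred log2 profiles were those of Igf1r with Igfbp2 (0.79) and Igf2 (0.78), and the closest pair was Igf1 with Igfbp4 (0.15).

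Igf2r read 392, 328, 449 and 391. Its 1 and 6 h arrays were nearly equal, and its span of 1.37-fold was the second narrowest of the 7 tested members. The mean was 390.0 ± 49.4 (SD, n = 4) and the slope 0.03 ± 0.08 log2 per h (SE, n = 4; 95% interval −0.15 to 0.21). With each array scaled to its median, Igf2r read 407, 337, 406.5 and 408, low at 2 h alone.

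Among the binding proteins, Igfbp2, a main IGF carrier of the cerebrospinal fluid, had the widest span of the tested members as deposited. Igf2 was wider with array median scaling, at a log2 range of 1.24 against 1.14, and without the 4 h sample, at 2.38-fold against 1.78-fold. Igfbp2 read 395, 523, 746 and 294, a 2.54-fold difference between the 4 h and the 6 h array, with a mean of 489 ± 195 (SD, n = 4). Values were higher at each step up to 4 h and lowest at 6 h. A fitted slope of −0.07 ± 0.1 log2 per h (SE, n = 4; 95% interval −0.29 to 0.16) turned to 0.3 without the 6 h sample.

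Igfbp6, which binds Igf2 in preference to Igf1, read 183, 209.7, 449.7 and 250.9. The 4 h array stood 1.08 above the mean of the other hours on the log2 scale, and the span from 1 to 4 h was 2.45-fold. Without the 4 h sample the span fell to 1.37-fold. The mean was 273 ± 121 (SD, n = 4) and the slope 0.13 ± 0.12 log2 per h, the steepest among the tested members (SE, n = 4; 95% interval −0.12 to 0.39). It was 0.45 without the 6 h sample and 0.065 without the 1 h sample. In the fit without the 1 h sample the slopes of Igfbp2 (−0.21), Igf2 (−0.2) and Igf1r (0.13) were steeper.

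The 4 h array was also the one with most choroid plexus marker signal. Of the 14 genes on that list 7 were measured and 3 tested, and the summed intensity was 443, 788, 3323 and 730.3. No measured marker was under 38.3 on all arrays, and 6 of 7 were highest at 4 h, among them all 3 tested, beside 32.9% of all tested probe sets. All 3 tested markers were lowest at 1 h, as was Igfbp6, beside 24.1% of all, whereas Igfbp2 was lowest at 6 h. Of the untested ones, Cldn2 had 2 values under 38.3 and Slc4a5 had 3. Fewer values of the whole array were under 38.3 at 4 h (17.3%) than at 1, 2 and 6 h (20.7%, 20.6% and 21.5%). Most of the sum at 4 h was transthyretin (Ttr), the thyroid hormone carrier that defines this epithelium, at 81.3, 234, 2408 and 191. Without Ttr the sum was 362, 554, 914.5 and 539, still highest at 4 h. With each array scaled to its median the sum with Ttr was 460, 810, 3008 and 761. The part of choroid plexus tissue in the Igfbp2 and Igfbp6 values was not tested. Summed endothelial and mural markers were 3465, 3567, 3795 and 2659, highest and lowest on the same arrays as Igfbp2. Of the 8 tested genes of that list, 3 were highest at 4 h, beside 32.9% of all tested probe sets. Another 3 were highest at 2 h, beside 22.4%.

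The profiles nearest to that of Igfbp2 over the 4 arrays, by root mean square distance between centred log2 values, were those of Cav1 (0.05), Sstr2 (0.06), Apobec2 (0.07), Smpd2 (0.08) and Mcam (0.08). Cav1, a coat protein of caveolae, read 179, 233, 340 and 124, and the adhesion molecule Mcam 105, 152, 226 and 78.4, passing the filter only through its 4 h value. With 4 arrays and 6500 profiles close matches are a description only. The 2 other probe sets of Sstr2, both tested, were highest at 2 h. The second Cav1 probe set, at 11.9, 105.6, 28.3 and 110.6, was under 38.3 on 2 arrays, and of the 2 others of Apobec2 1 was under it on all 4 and the other on 1, so these say little on the profile.

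Igfbp4 was measured by 3 probe sets that disagree. The tested one read 422, 475, 527 and 491, the narrowest span of the tested members at 1.25-fold, with a mean of 479 ± 43.9 (SD, n = 4) and a slope of 0.04 ± 0.07 log2 per h (SE, n = 4; 95% interval −0.12 to 0.2). The other 2 had means under the filter. One was lower at each step, at 98.4, 68.3, 57.3 and 33.1, at least 2.57-fold from 1 to 6 h. The other read 6.6, 23.7, 79.7 and 32, above 38.3 at 4 h alone. Why they disagree was not tested.

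Igfbp3, the main IGF carrier of blood, had no tested probe set. The brighter of its 2 probe sets read 163, 134, 83 and 45.8, lower at each step and 3.56-fold lower at 6 h than at 1 h. The dimmer read 27.7, 23.3, 49 and 45.9, under 38.3 at 1 and 2 h, and did not show the course. With the filter at the 25th percentile the brighter probe set was tested and had a slope of −0.37 log2 per h with limma's adjusted p = 0.999927.

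With limma, 0 of 7 tested members had a trend on the hour at an adjusted p under 0.05, beside 0% of all 6500 tested probe sets. The adjusted p was 0.999955 for each member. At an unadjusted p under 0.05 there were 0 of the 7 tested members and 136 of the 6500 tested probe sets. With no filter, limma's unadjusted p was 0.013 for the brighter Igfbp3 probe set. It was 0.0078 for the Igfbp4 probe set that was lower at each step, and above 0.05 for all other member probe sets. Neither was called after adjustment. The share of all 10833 probe sets under 0.05 in the fit with no filter is not given here. These 2 p-values therefore have no background beside them, and the 136 belong to the filtered fit. Standard errors and p-values of the same member differ between the 2 fits. For that Igfbp4 probe set the 6 h value, 33.1, was raised to 38.3 before the fit, so its slope and p-value rest partly on a substituted value. Slopes were positive for 5 of the 7 tested members and negative for 2. Their median was 0.03 log2 per h against −9.9e-05 for all tested probe sets. The 95% intervals all include 0, and that of Igfbp6 reaches 0.39 log2 per h, so these arrays do not exclude a slope of that size for Igfbp6.

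**Figure D3:**
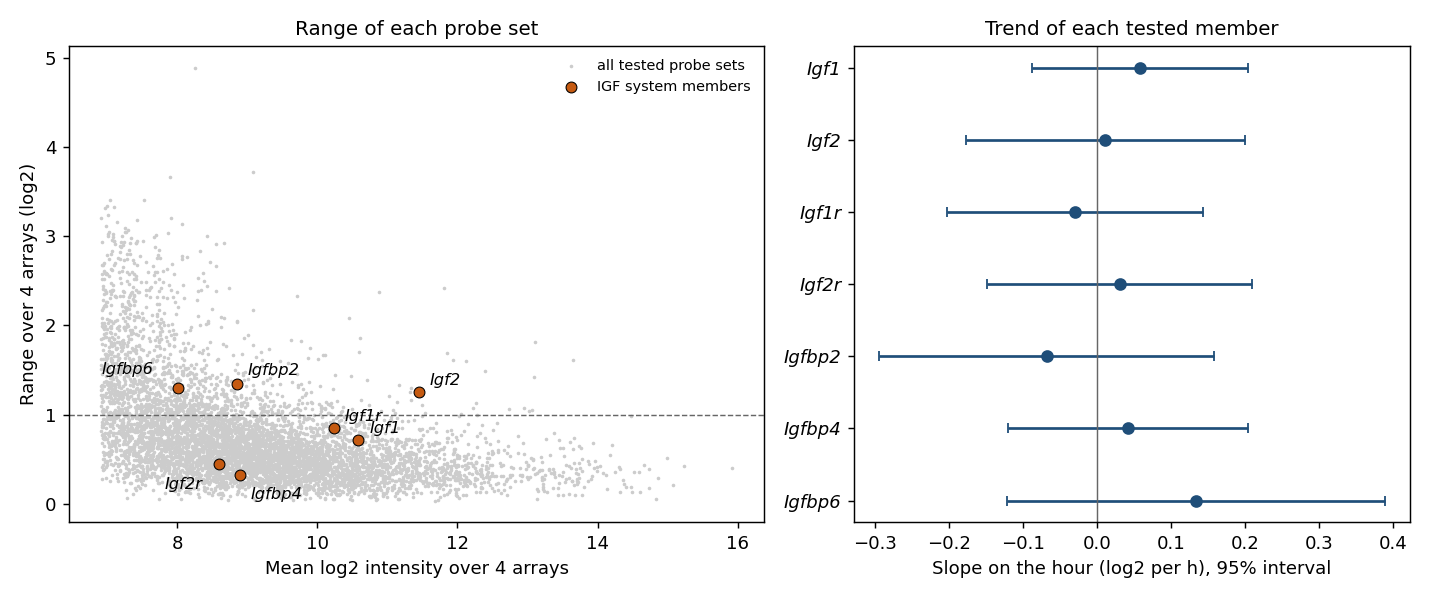
Left, the range of log2 intensity over the 4 arrays against the mean, for all 6500 tested probe sets (grey) and the 7 tested members (orange), with a dashed line at a 2-fold range. Right, the fitted slope of each tested member on the hour (log2 per h, points) with its 95% interval (bars). Igfbp2, Igfbp6 and Igf2 lie above the 2-fold line, and all 7 intervals include 0.

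By array, 5 of 7 tested members were highest at 4 h (Igf1, Igf2r, Igfbp2, Igfbp4 and Igfbp6), beside 32.9% of all tested probe sets, and 4 were lowest at 1 h (Igf1, Igf2, Igfbp4 and Igfbp6), beside 24.1%. The median member stood 0.28 above the other hours at 4 h on the log2 scale, against 0.04 for all tested probe sets. This count depends on the scaling. With each array scaled to its median, which puts the median of all tested probe sets at 4 h at −0.15, Igf1, Igfbp2 and Igfbp6 were still highest at 4 h and Igf2r and Igfbp4 were highest at 6 h, giving 3 of 7 beside 18.4% of all. With quantile normalisation 5 of 7 were highest at 4 h, beside 30.3% of all.

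**Figure D4:**
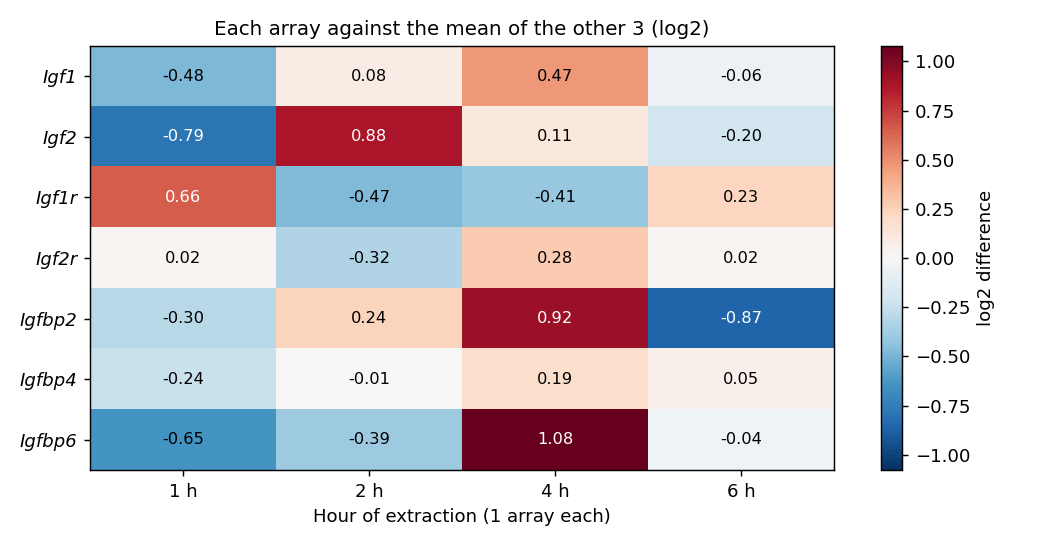
For each tested member (rows) and each array (columns, by hour), the log2 intensity minus the mean of the other 3 arrays, as colour and printed value. The largest positive values are those of Igfbp6 (1.08) and Igfbp2 (0.92) at 4 h and of Igf2 (0.88) at 2 h, and the largest negative ones those of Igfbp2 at 6 h (−0.87) and Igf2 at 1 h (−0.79).

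Further genes of the pathway were followed as a list of 59 other ligands, receptors, adaptors and kinases, of which 40 were measured, by 59 probe sets, and 24 tested, by 31 probe sets. With limma 0 of the 31 had a called trend, and 0 an unadjusted p under 0.05. A span over 2-fold was found in 5 of 31, beside the 21.6% of all tested probe sets. The median span was 1.62-fold, and 20 slopes were positive and 11 negative. The 5 were probe sets of Stc2, Pdpk1, Mtor, Bad and Grb2, and Mtor, Bad and Grb2 are named only because they were among them. Stc2, a secreted inhibitor of the protease that releases IGFs from Igfbp4, had the widest span and the steepest slope of the list. It read 39.5, 102, 400.1 and 162, 10.1-fold from 1 to 4 h, with a slope of 0.43 ± 0.21 log2 per h (SE, n = 4). It passed the filter only through its 4 h value, and its 1 h value is close to 38.3, so its place at the head of the list rests on the array where it was high. Sh2b1, an adaptor of insulin and IGF receptors, had the next steepest slope, at 0.16 ± 0.08, and read 404, 479, 775 and 658.

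The kinase Pdpk1, which activates AKT, read 867, 233, 426.5 and 824, lowest at 2 h, while its second probe set, at 2233.5, 2063, 1325 and 1903, was lowest at 4 h. Of 2 tested Mtor probe sets 1 spanned 2.16-fold and the other 1.2-fold, and of 2 tested Bad probe sets 1 was highest at 1 h and the other at 4 h. Irs2, the docking protein that links these receptors to PI3 kinase, read 973, 563, 907 and 923, low at 2 h alone. The insulin receptor probe set (Insr) read 24.3, 33, 30 and 14.8, under 38.3 on every array, so its level is only bounded.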

How the data were processed

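The authors deposited linear array intensities, 1 for each probe set on each array. How these were made is not given in the sources used here. Means trimmed of the top and bottom 2% were 499.7, 499.7, 499.9 and 499.7, well within the 10% allowed, so values were used as deposited. Probe sets were named through the platform's annotation, with symbols updated by gene ID in a RefSeq table of GRCm38.p6. Control probe sets (66) and those with no symbol (1193) or several (396) were left out. Values under 38.3 were raised to 38.3 before taking log2. R 4.3.3 with limma 3.58.1 fitted a line on the hour (lmFit, eBayes with an intensity trend, 2 residual and 9.78 prior degrees of freedom), two-sided, with Benjamini-Hochberg adjustment over 6500 probe sets, called at 0.05. Tested on simulated data, the fit returned the planted slopes on average but called none of the shallower and, in most runs, part of the steeper ones. The simulated scatter was shuffled between probe sets and drawn separately for each value. It therefore held no effect shared by an array and no link of scatter to intensity. Its p-values measure scatter about a line, and separate mice behind the samples are not stated. Spans over 2-fold were counted without a test.

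The members and lists were chosen with earlier results of these data known. Named are all member probe sets, the 5 profiles nearest to the tested member with the widest range as deposited, the 2 pathway genes with the widest range and the 2 with the steepest slope, Insr, Irs2 and Ttr. Others, the counts of highest and lowest arrays, and the marker sums without Ptgds or Ttr were chosen after seeing the data. Alternatives changed the floor, scaling, filter, probe set rule, covariate and samples.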

Additional observations from a re-analysis of the deposited data

Results flagged for a closer look

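With values as deposited, no tested member had 1 array standing apart from the other 3 by Dixon's gap. This gap is the distance of the highest or lowest log2 value to its neighbour over the whole range. It was set against Dixon's 95% limit for 4 values. Igf2r passed the limit with array median scaling only. Of 36 profiles examined, chosen for being described here, 2 passed it, besides 0 of 8 marker list sums. Of all 6500 tested probe sets 390 passed it, and chance gives about 1 in 20. Irs2 had a ratio of 0.872, with the low value at 2 h. The granule cell marker Calb1, a calcium-binding protein, read 2542, 3026, 2506 and 2453, with the high value at 2 h and a ratio of 0.831, just over the limit.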

How the results depend on the processing

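Under every alternative run, with 6 to 13 members tested, the members gave 0 called trends, as did the pathway list. All 91 refitted slopes missed the threshold (lowest limma adjusted p = 0.46) and 87 kept their sign. The other 4 reversed, those of Igf1, Igf2 and Igf1r without the 1 h sample and that of Igfbp2 without the 6 h sample. Leaving out each sample in turn, slopes ran from −0.027 to 0.22 log2 per h for Igf1, from −0.201 to 0.15 for Igf2, from −0.23 to 0.13 for Igf1r, from 0.0046 to 0.088 for Igf2r, from −0.21 to 0.298 for Igfbp2, from 0.011 to 0.103 for Igfbp4 and from 0.065 to 0.449 for Igfbp6. Members over 2-fold were 6 of 13 with no filter, and 1 to 2 of 7 leaving out each sample in turn, lowest without the 4 h sample. Pathway probe sets over 2-fold were 19 of 59 with no filter, 16 of 42 with the filter at the 25th percentile, 1 of 22 with 1 probe set per gene, 2 of 21 with the mean of all probe sets and 2 to 4 leaving out each sample in turn. Members highest at 4 h were 3 of 7 with array median scaling. Under that scaling 1 member, Igf2r, passed the gap limit, with its low value at 2 h. How many of all tested probe sets passed it under that scaling was not counted. The gap limit holds for 4 values, so it was not applied with a sample left out or with no filter, where values tie at the floor. Of all tested probe sets, 18 were called without the 1 h sample, 3 without the 2 h, 0 without the 4 h and 2 without the 6 h sample, each from 3 arrays with 1 residual degree of freedom. Over all 6500 tested, 1406 spanned over 2-fold. The figure was 3699 of 10833 with no filter, 2763 of 8125 with the filter at the 25th percentile, 741 of 4951 with 1 probe set per gene, 878 of 4951 with the mean of all probe sets and 745 without the 4 h sample. The number of probe sets entering differed between these settings, and causes were not tested. Low signal limits Igfbp3 and the second probe sets of Igf1, Igf2 and Igfbp4.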
